A study of Mus musculus with 6 samples.

Results

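Base excision repair removes single damaged bases from DNA. A DNA glycosylase finds the damaged base and cuts it from its sugar, an endonuclease opens the strand at the empty site, and a polymerase and a ligase fill and seal the gap. PARP1 and PARP2 sense the strand break and mark it with poly(ADP-ribose), which draws in the scaffold protein XRCC1. The comparison below covers 10 genes of this pathway, chosen by name and function and not by their values. They are the glycosylase genes Ogg1, Mutyh, Nthl1, Neil3, Ung, Mbd4 and Mpg, the sensors Parp1 and Parp2, and Xrcc1. All 10 were measured, out of 17097 genes tested, and they are read by 16 of the 45141 probe sets of the array. The study asked how the loss of CD98hc, the heavy chain of a family of amino acid transporters, affects the supply of nucleotides, DNA synthesis and the response to DNA damage.

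By the study's account, RNA came from fibroblasts derived from mouse embryonic stem cells. The labels give the genotype as WT (3 arrays) or CD98hc KO (3 arrays), with replicate numbers 1, 3 and 5 under both. Both groups grew in high glucose DMEM with 100 µM β-mercaptoethanol, a thiol antioxidant. No source used here tells whether replicates were separate cultures or whether each genotype was a single clone, so each p-value reflects array-to-array spread that may be purely technical. For Slc3a2, which encodes CD98hc, the log2 signal under the WT label was 10.64, 10.67 and 10.51, and under the KO label 11.65, 11.57 and 11.54, which is higher where the gene should be lost. Its single probe set may lie outside the deleted part of the gene, in which case it checks nothing. The position of the probe set was not examined, and whether the labels match the cells was not tested. Every direction below therefore compares the arrays by their label alone.

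The 2 labels also differed in the markers of cell type. All 10 pluripotency markers measured were higher on the KO-labelled arrays (median over the markers 4.51 to 4.76 on the WT-labelled and 11.02 to 11.07 on the KO-labelled arrays). Of 13 fibroblast markers 7 were lower and 1 higher (medians 7.39 to 8.38 and 4.97 to 5.12). The higher one had a low signal, with means of 4.52 and 4.89. Lum (means 4.17 and 4.20) and Pdgfra (4.50 and 4.25) lay with either label near 4.23, the median of the nonspecific control probe sets. Of 8 epithelial markers 7 were higher (4.79 to 4.98 and 7.13 to 7.71), and of 11 proliferation markers 0 were higher and 4 lower (10.52 to 10.83 and 10.28 to 10.60). These differences follow the label, so their part in the results below cannot be told apart from it and was not tested. In bulk RNA fewer cells of a type and less RNA per cell cannot be told apart either. The 9 probe sets of the hybridisation controls were lower on both replicate 3 arrays than on the other 4 (mean difference −1.25), so results that rest on those arrays are also given without them.

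Of the 10 genes, Ung, Mutyh and Parp1 were higher with the KO label, and Mpg and Parp2 were lower, at an adjusted p under 0.05 in limma (the moderated test used throughout, with SE for the standard error of a log2 fold change). These 3 and 2 genes compare with 22.6% of all genes called higher and 19.2% called lower, so the share of changed genes among the 10 (50%, against 41.9%) was near that of the whole array. With the further demand of a change over 2-fold, Ung and Parp1 were higher (9.27% of all genes) and Mpg was lower (10.1%, and 19.4% in either direction). Parp1 and Mpg were at that limit by their most variable probe set only, and both went below it in some alternatives. The 3 values of each label did not overlap for 7 of the 10 genes (51.5% of all genes), 3 of them higher (28.1%) and 4 lower (23.4%). The balance of directions depended on the scaling. With quantile normalisation 4 genes were higher and 1 lower, and with each array centred on its median 3 were higher and 4 lower. The balance over all genes moved too, from 3869 higher and 3291 lower to 3323 and 3761 with centring, while quantile normalisation gave 3879 and 3275. The values of Ogg1, Mpg, Parp2, Neil3 and Ung were tight by the most variable probe set, with an SD under 0.2 under both labels.

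**Figure D1:**
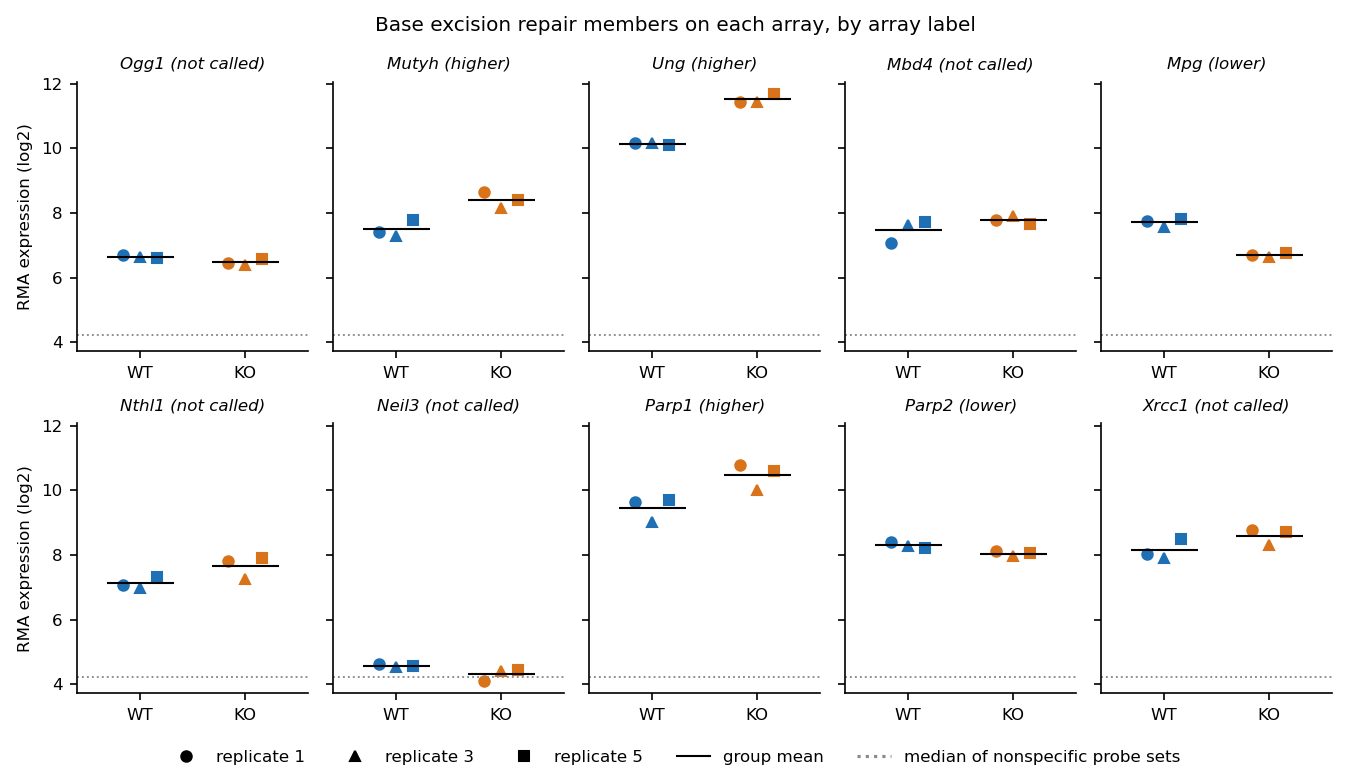
RMA log2 expression (vertical axis) of the 10 genes on each array, by label (blue, WT-labelled; orange, KO-labelled; symbol shape, replicate number), with a bar at the group mean and a dotted line at the median of the nonspecific probe sets (4.23). Ung, Mutyh and Parp1 are higher and Mpg is lower on all 3 KO-labelled arrays, and the Neil3 probe set shown lies near the dotted line.

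The 250 bases before the annotated start site are shown for Ung, Mutyh, Parp1 and Mpg, the 4 genes that also passed when p was adjusted over all probe sets, so that the regulatory sequence of the genes that rose can be set beside that of Mpg, which fell. Ung and Mutyh have 1 probe set each. Sequences are from RefSeq (GRCm38.p6), 5′ to 3′, with capitals for the GC box GGGCGG, the binding motif of SP1, on either strand.
Ung, chr5:114130185-114130434, plus strand: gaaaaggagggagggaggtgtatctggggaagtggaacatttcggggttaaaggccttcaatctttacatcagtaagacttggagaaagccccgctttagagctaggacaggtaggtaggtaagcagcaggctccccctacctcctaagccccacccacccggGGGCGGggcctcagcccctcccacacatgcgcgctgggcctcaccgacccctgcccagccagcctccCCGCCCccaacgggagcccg
Mutyh, chr4:116807484-116807733, plus strand: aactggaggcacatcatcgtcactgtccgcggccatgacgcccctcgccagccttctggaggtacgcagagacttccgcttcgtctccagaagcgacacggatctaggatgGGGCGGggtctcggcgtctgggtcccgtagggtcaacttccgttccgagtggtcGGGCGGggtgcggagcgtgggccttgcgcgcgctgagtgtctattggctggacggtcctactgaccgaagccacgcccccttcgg
Parp1, chr1:180568641-180568890, plus strand: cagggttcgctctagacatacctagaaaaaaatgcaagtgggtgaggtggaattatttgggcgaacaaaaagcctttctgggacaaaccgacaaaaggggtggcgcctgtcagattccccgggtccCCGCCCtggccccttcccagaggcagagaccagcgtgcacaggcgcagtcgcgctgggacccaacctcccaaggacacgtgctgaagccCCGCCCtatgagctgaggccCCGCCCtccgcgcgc
Mpg, chr11:32226255-32226504, plus strand: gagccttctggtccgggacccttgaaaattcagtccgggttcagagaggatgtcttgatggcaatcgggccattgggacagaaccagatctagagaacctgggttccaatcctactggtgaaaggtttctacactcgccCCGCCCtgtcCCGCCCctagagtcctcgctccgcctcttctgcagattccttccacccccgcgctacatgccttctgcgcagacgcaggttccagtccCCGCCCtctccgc

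All 4 sequences hold GC boxes, 2 in Ung, 2 in Mutyh, 3 in Parp1 and 3 in Mpg, so genes of both directions carry them. All 10 genes matched the promoter table, with 11 windows of 300 bases (250 before to 50 after the start, and 2 start sites for Mutyh). A GC box was found in a window of 9 of the 10 genes, Xrcc1 being the exception, and the second Mutyh window had none. Of all 32851 windows, 35.7% held one, a share that counts windows and not genes. The GC content was 43.7% in the second Mutyh window and 49.3% in Xrcc1, and from 56% to 65.3% in the other 9 windows, all above the median of 52.7% for all windows, and whether the share with a GC box goes beyond that base composition was not tested. The E2F motifs TTTCCCGC, TTTGGCGC and TTTCGCGC, searched on both strands, were found in 1 gene, Nthl1, where TTTCGCGC starts at position −132 from the start site (1.84% of all windows hold one of the 3). The NRF2 motif TGACNNNGC, searched on both strands, was found in 0 of the 10 genes (12.4% of all windows). These are matches of letters and not measured binding sites.

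**Figure D2:**
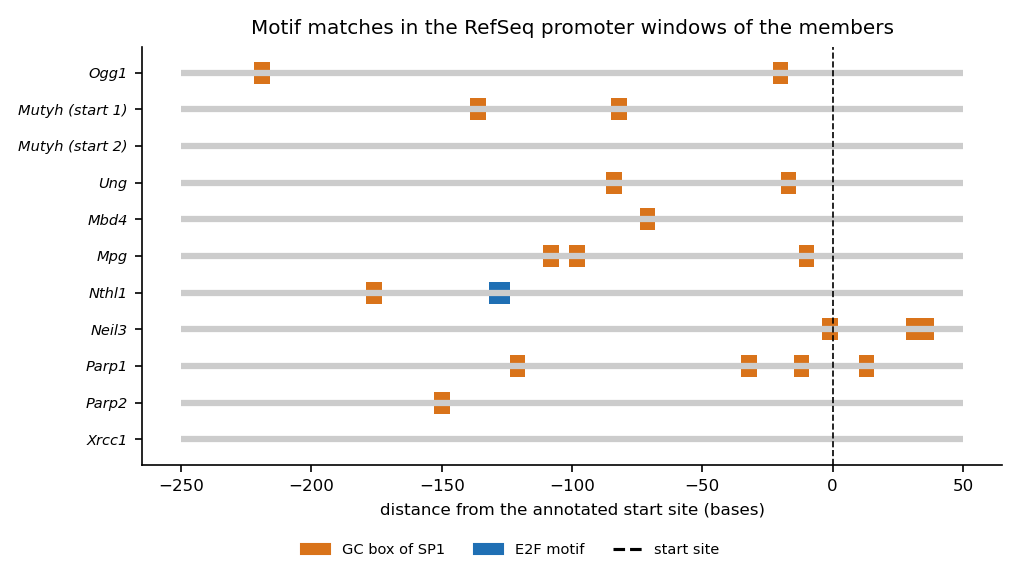
Position of each motif match (horizontal axis, bases from the annotated start site) in the RefSeq promoter windows of the 10 genes, with the GC box of SP1 in orange, the E2F motif in blue and a dashed line at the start site. GC boxes lie in the windows of 9 genes, Nthl1 has the single E2F match, and Xrcc1 and the second start of Mutyh have none.

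Within 1 kb upstream of these start sites, 3 genes start on the other strand in the same table, head to head. They are Toe1 beside Mutyh, Tsc2 beside Nthl1 and Pinlyp beside Xrcc1, and starts downstream were not searched. Toe1, which encodes a deadenylase, had a log2 fold change of 0.35 (SE 0.13, limma adjusted p = 0.081), in the direction of Mutyh but not past the threshold. Pinlyp had −0.04 (SE 0.083) at a level near the nonspecific median, and Tsc2 was not analysed here.

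Oxidised guanine is met by a pair of glycosylases. OGG1 cuts 8-oxoguanine out of DNA, and MUTYH removes the adenine that a polymerase has wrongly set against it. Mutyh stood at 7.41, 7.28 and 7.80 in WT-labelled RNA (log2, replicates 1, 3 and 5, the order used throughout) against 8.64, 8.16 and 8.41 in KO-labelled RNA. The KO-labelled values all lay above the WT-labelled ones. The log2 fold change was 0.91 (SE 0.18, limma adjusted p = 0.0066), a 1.88-fold rise. The replicate 3 array was the lowest under both labels, and without the replicate 3 arrays the value was 0.92 (limma adjusted p = 0.021).

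Ogg1 did not pass by either of its probe sets, and passed only with each array centred on its median (−0.26, limma adjusted p = 0.031). The more variable had 6.71, 6.65 and 6.60 in WT-labelled against 6.45, 6.40 and 6.56 in KO-labelled RNA, a log2 fold change of −0.18 (SE 0.074, limma adjusted p = 0.097). The groups did not overlap there, by a margin that was small beside the change in Mutyh. The other probe set, with 8.18, 7.95 and 8.23 against 8.02, 8.03 and 8.17, overlapped, and its 95% interval for the log2 fold change ran from −0.28 to 0.19.

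NTHL1 and NEIL3 act on oxidised pyrimidines and further oxidation products, NEIL3 mostly in dividing cells and in single-stranded DNA. Nthl1 had 7.09, 6.97 and 7.33 in WT-labelled against 7.82, 7.27 and 7.92 in KO-labelled RNA. The replicate 3 array was the lowest under both labels, and the KO-labelled one fell within the WT-labelled range. The log2 fold change was 0.54 (SE 0.19, limma adjusted p = 0.065), and Nthl1 passed without the replicate 3 arrays (0.66, adjusted p = 0.018 from limma) and without the KO-labelled replicate 3 array alone (0.74, adjusted p = 0.0066), as well as with those arrays as a covariate (0.54, adjusted p = 0.012).

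Neil3 was measured by a pair of probe sets, of which the more variable was close to the nonspecific median of 4.23, with 4.62, 4.55 and 4.58 in WT-labelled against 4.10, 4.41 and 4.44 in KO-labelled RNA. The brighter probe set had 7.51, 7.57 and 7.68 against 7.38, 7.37 and 7.16. On both, each KO-labelled value lay below each WT-labelled value. The log2 fold changes were −0.27 (SE 0.11, limma adjusted p = 0.092) and −0.28 (SE 0.09). Without the KO-labelled replicate 1 array, the lowest, the first of these was −0.16 (adjusted p = 0.18). With genes represented by their brightest probe set the second of these had an adjusted p of 0.048 from limma, and the gene is therefore at the threshold.

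UNG removes uracil from DNA, where it comes from deaminated cytosine or from dUTP taken up during replication, and MBD4 removes thymine and uracil set against guanine at CpG sites. Ung showed the largest change of the 10. Its log2 values were 10.16, 10.16 and 10.10 in WT-labelled against 11.42, 11.43 and 11.69 in KO-labelled RNA, so the groups lay more than a full log2 unit apart. The log2 fold change was 1.37 (SE 0.092, limma adjusted p = 7.4e-05), or 2.58-fold, larger in size than that of 87.5% of all genes. Over the 6 arrays the genes with the pattern most like it were Pars2, Trh and Epha4, with Pearson's r from 0.9996 to 0.9998. The arrays form a cluster per label, so r here follows the label difference, and 197 genes had an r over 0.99.

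Mbd4 had 7.09, 7.64 and 7.72 in WT-labelled against 7.79, 7.90 and 7.67 in KO-labelled RNA. Only the WT-labelled replicate 1 array stood apart, and the groups overlapped. The log2 fold change was 0.30 (SE 0.18, limma adjusted p = 0.24), and 0.30 (SE 0.15) by the other probe set. Without the WT-labelled replicate 1 array the first of these was 0.10 (adjusted p = 0.50), and with each array left out in turn it ran from 0.10 to 0.42.

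MPG, the alkyladenine glycosylase, removes bases damaged by methylation. It was the glycosylase gene with the clearest decrease. Mpg had 7.76, 7.58 and 7.82 in WT-labelled against 6.71, 6.65 and 6.75 in KO-labelled RNA. No values overlapped. In log2 terms expression fell by 1.01 (SE 0.085, limma adjusted p = 0.00018), or 2.02-fold. The second probe set had 8.76, 8.81 and 9.31 against 8.23, 8.23 and 8.31 and fell by 0.70 (SE 0.15, limma adjusted p = 0.014 over all probe sets). A further probe set, which the platform names for both Mpg and Nprl3, was left out.

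PARP1 makes most of the poly(ADP-ribose) at strand breaks and PARP2 a lesser part. Parp1 was measured by 3 probe sets, all higher on the KO-labelled arrays. The most variable had 9.64, 9.03 and 9.70 in WT-labelled against 10.78, 10.02 and 10.60 in KO-labelled RNA, and the replicate 3 array was the lowest under both labels. Its log2 fold change was 1.01 (SE 0.26, limma adjusted p = 0.019), and the suffix of its name marks probes that may match transcripts of more than 1 gene. Without the replicate 3 arrays the value was 1.02 (adjusted p = 0.0039). The call was lost without the WT-labelled replicate 3 array (0.80, adjusted p = 0.051), the KO-labelled replicate 1 array (0.86, adjusted p = 0.06) or the KO-labelled replicate 5 array (0.95, adjusted p = 0.062).

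The other Parp1 probe sets did not rest on a single array. They had 10.08, 9.89 and 10.21 against 11.12, 10.59 and 10.96, and 10.52, 10.51 and 10.28 against 10.90, 10.94 and 10.95, with no overlap in either. The log2 fold changes were 0.83 (SE 0.16, limma adjusted p = 0.0076 over all probe sets) and 0.49 (SE 0.085, adjusted p = 0.0053), and both passed with each array left out in turn. The direction of Parp1 was thus common to its probe sets, while the size ran from 0.49 to 1.01.

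Parp2 had 8.40, 8.28 and 8.22 in WT-labelled against 8.12, 7.96 and 8.06 in KO-labelled RNA. The KO-labelled values were all lower, by a small amount. The log2 fold change was −0.26 (SE 0.08, limma adjusted p = 0.042), and it did not pass in 11 of 16 alternatives, among them each with 1 array left out, the 4 arrays of replicates 1 and 5 (−0.22, adjusted p = 0.16) and quantile normalisation (−0.17, adjusted p = 0.16). Whether the changes of Parp1 and Parp2 differed from each other was not tested.

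XRCC1 is the scaffold that holds ligase III and polymerase beta at the break. Xrcc1 had 8.04, 7.92 and 8.48 in WT-labelled against 8.76, 8.32 and 8.71 in KO-labelled RNA. The replicate 3 array was again the lowest under both labels, and the KO-labelled one fell within the WT-labelled range. The log2 fold change was 0.45 (SE 0.18, limma adjusted p = 0.099), 0.48 (adjusted p = 0.11) without the replicate 3 arrays, and 0.45 (adjusted p = 0.031) with those arrays against the rest as a covariate. The gene passed without the WT-labelled replicate 5 array (0.62, adjusted p = 0.028) and without the KO-labelled replicate 3 array (0.59, adjusted p = 0.047).

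**Figure D3:**
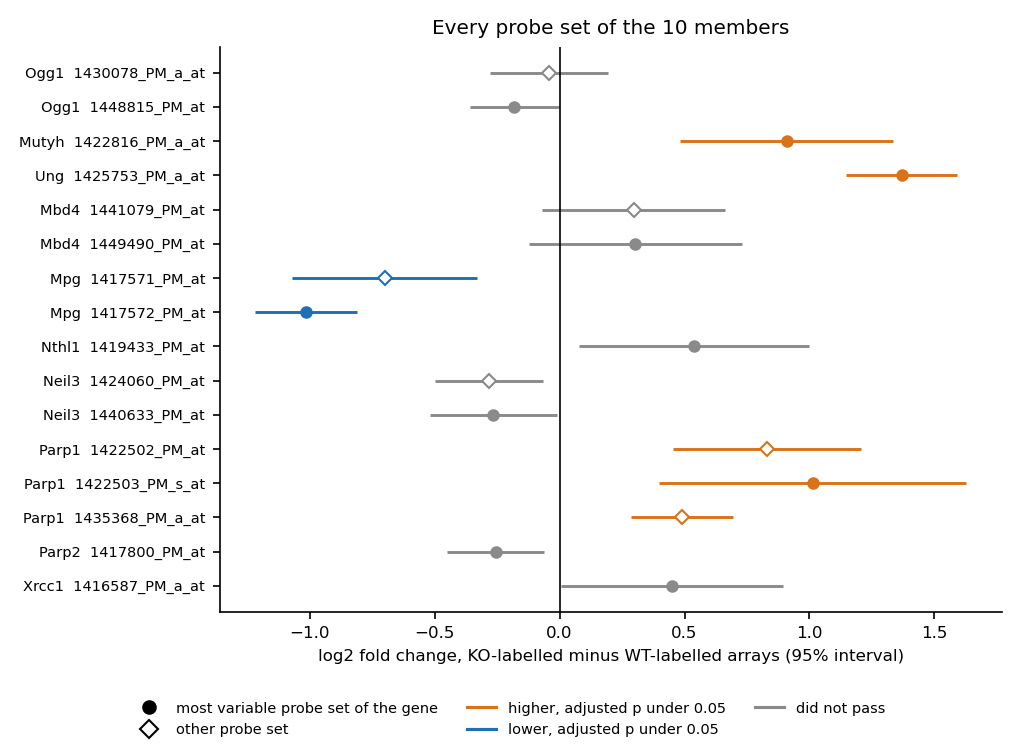
Log2 fold change with its 95% interval (horizontal axis) of each of the 16 probe sets of the 10 genes, coloured by direction where the p adjusted over all probe sets is under 0.05, with filled circles for the most variable probe set of a gene and open diamonds for the others. The 3 Parp1 probe sets lie above 0 and both Mpg probe sets below it, and Parp2, at 0.051 when adjusted over all probe sets, is grey.

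Over all probe sets, 5 of the 16 were higher (16.8% of all probe sets) and 2 lower (15.9%, and 32.7% in either direction), from Mutyh, Ung, Parp1 and Mpg. Where a gene had several probe sets, their log2 fold changes had the same sign in all 5 such genes. In Ogg1, Neil3 and Mbd4 no probe set passed over all probe sets, so the shared sign says little there. The share of all genes with such agreement was not counted.

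**Figure D4:**
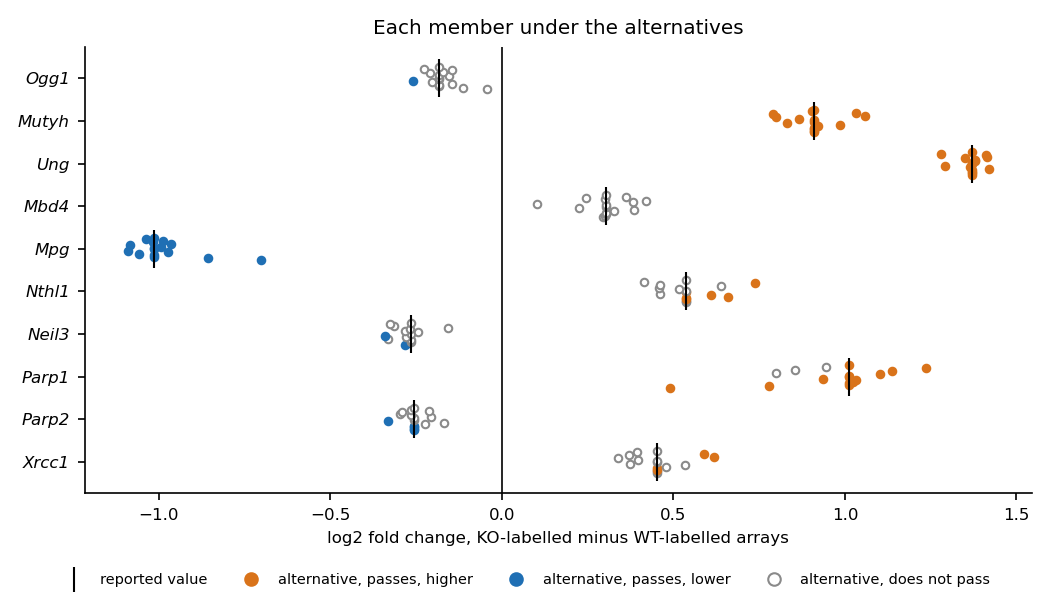
Log2 fold change (horizontal axis) of the 10 genes as reported (black tick) and under each alternative (dots, filled where the adjusted p is under 0.05). All dots of Ung, Mutyh and Mpg are filled, those of Mbd4 are open, and no gene crosses 0, though several alternatives leave the log2 fold change itself unchanged.

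The same fit was read for 29 measured genes of the neighbouring steps, on 4 lists written from textbook knowledge. Of them 14 were higher and 5 lower with the KO label (22.6% and 19.2% of all genes). With each array centred on its median 11 were higher and 5 lower (all genes 3323 and 3761). Quantile normalisation gave 16 and 5 (all genes 3879 and 3275). With each array left out in turn, 11 to 13 were higher and 4 to 6 lower. The median log2 fold change of the 29 genes was 0.34, against 0.02 for all genes. For the 10 genes above the median was 0.38. The other glycosylases ran one way. Smug1, a further uracil glycosylase, rose by 0.52 (SE 0.13, limma adjusted p = 0.02), Neil1 by 0.32 (SE 0.088, adjusted p = 0.028), and Tdg, which removes thymine and oxidised methylcytosine, by 0.37 (SE 0.11, adjusted p = 0.033). The brighter Tdg probe set had 0.10 (adjusted p = 0.52 over all probe sets).

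Among 12 genes of incision, gap filling and ligation, 3 were higher and 2 lower, near the shares of all genes (22.6% and 19.2%). Polb, the polymerase of the short repair patch, had 6.07 ± 0.12 under the WT label and 7.31 ± 0.23 under the KO label (log2, SD, n = 3 arrays each), a rise of 1.24 (SE 0.13, limma adjusted p = 0.0005). The mitochondrial polymerase Polg rose by 0.85 (SE 0.12, adjusted p = 0.0017) and the ligase Lig1 by 0.40 (SE 0.078, adjusted p = 0.0071). Apex1, the main enzyme that opens the strand after the glycosylases, fell by 0.45 (SE 0.084, adjusted p = 0.0058). The related Apex2 fell by 0.75 (SE 0.14, adjusted p = 0.0055). Lig3, Fen1, Pcna, Poll, Aptx, Aplf and Tdp1 did not pass, with log2 fold changes from −0.31 to 0.34.

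Of 11 genes of ADP-ribose signalling, 6 were higher and 3 lower (22.6% and 19.2% of all genes). Parg, which degrades the polymer, rose by 0.91 (SE 0.073, limma adjusted p = 0.00015), and the hydrolases Oard1 and Macrod2 by 1.01 and 1.05, the latter by 1 of its 3 probe sets. The probe sets used for Oard1 and Macrod2 carry the suffix described for Parp1, so their probes may match more than 1 gene. Adprhl2, which removes ADP-ribose from serine, went from 6.83 ± 0.20 to 7.84 ± 0.07 (log2, SD, n = 3 each, limma adjusted p = 0.00065), while Macrod1 did not pass (0.74, adjusted p = 0.058). Hpf1, the cofactor that directs PARP1 and PARP2 to serine, rose by 0.48 (SE 0.10, adjusted p = 0.0099), and the tankyrase Tnks by 0.53 (adjusted p = 0.03), with 2 of its 4 probe sets past the threshold and a range from 0.13 to 0.60.

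The largest log2 difference measured among the 29 genes was that of Parp3, a mono-ADP-ribosylating enzyme of strand break repair. It went from 9.11 ± 0.24 under the WT label to 4.71 ± 0.08 under the KO label (log2, SD, n = 3 each), close to the nonspecific median, a log2 fold change of −4.40 (SE 0.13, limma adjusted p = 3.2e-06). All 3 of its probe sets were lower, from −4.40 to −0.78. The probe set with −4.40 carries the suffix described for Parp1. Parp10, a further mono-ADP-ribosyltransferase, went from 7.30 ± 0.90 to 4.52 ± 0.09 (log2, SD, n = 3 each) and fell by 2.78 (SE 0.42, limma adjusted p = 0.0022). For both genes the KO-labelled signal was near that of the nonspecific probe sets, so the difference is only a lower limit for the size of the change. Tnks2 fell by 0.76 (limma adjusted p = 0.018), but its brightest probe set had −0.14 (adjusted p = 0.53 over all probe sets). The Tnks2 probe set with the larger fall carries that suffix too. Parp14 had 0.02.

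For the cleaning of the nucleotide pool, which keeps damaged or wrong bases from entering DNA, 2 of 3 genes were higher (22.6% of all genes). Dut, which destroys dUTP, rose from 8.41 ± 0.03 to 9.55 ± 0.07 (log2, SD, n = 3 each), by 1.14 (SE 0.067, limma adjusted p = 4.3e-05), and its brighter probe set by 0.55. Nudt1, which destroys 8-oxo-dGTP, rose from 9.47 ± 0.09 to 10.52 ± 0.10, by 1.05 (SE 0.086, adjusted p = 0.00017). Nudt5 had −0.03 (adjusted p = 0.82).

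**Figure D5:**
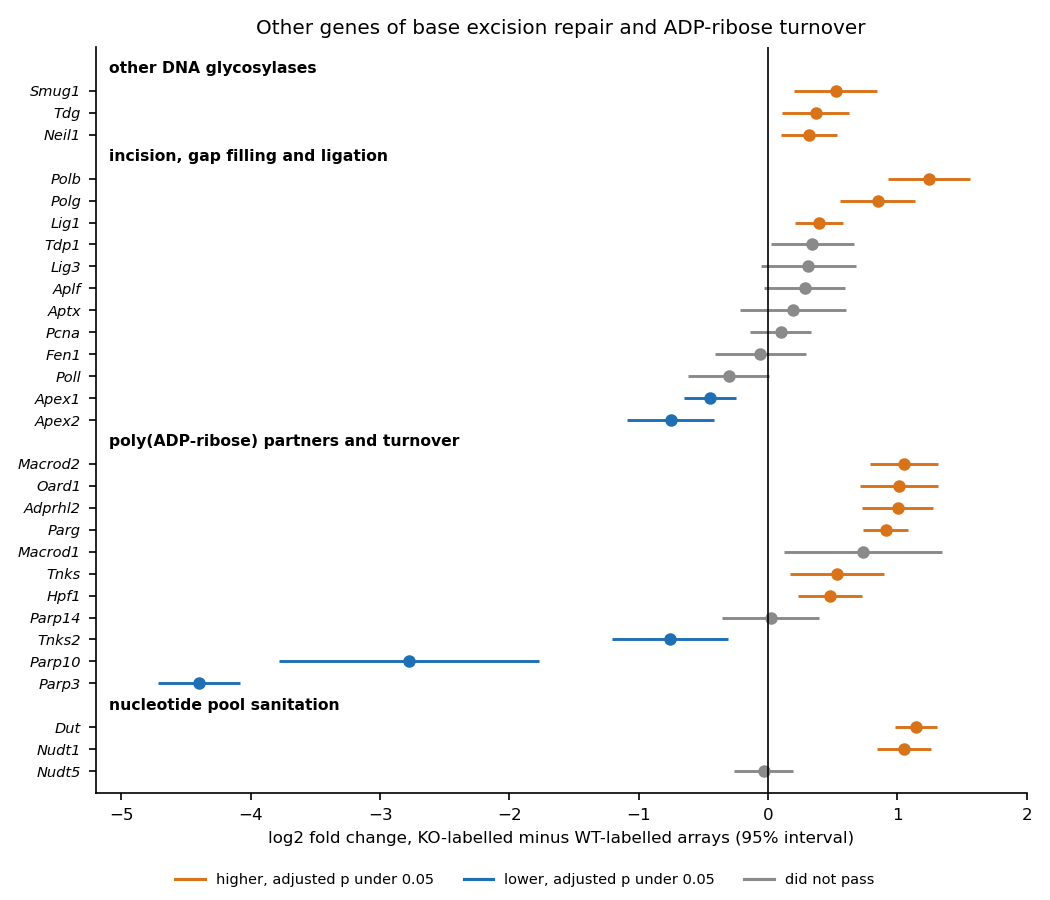
Log2 fold change with its 95% interval (horizontal axis) of 29 further genes in 4 lists, coloured by direction where the adjusted p over genes is under 0.05. All 3 other glycosylases are higher, Apex1 and Apex2 are lower, and Parp3 (−4.40) and Parp10 (−2.78) lie far from the rest.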

How the data were processed

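RNA of 6 arrays of an Affymetrix mouse expression platform was analysed. The authors normalised the arrays by RMA (version not stated), which also combines the probes of a set, and the deposited table holds log2 values. Groups came from the sample labels. Of 45141 probe sets, 28898 had 1 gene symbol. For each of 17097 genes the probe set with the largest SD over all arrays was used, as in the study's methods. This choice sees both labels and favours probe sets that differ.

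KO-labelled minus WT-labelled values of all probe sets were fitted with limma 3.58.1 under R 4.3.3 (lmFit, eBayes), with Benjamini-Hochberg adjustment over the genes and a threshold of 0.05. The methods adjust for scan batch, which the labels do not give, so no covariate was used. Probe sets compared with each other were adjusted over all probe sets. For a single value, 3 against 3 arrays allow no exact permutation p smaller than 0.1. So few arrays limit how precise each value is.

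The 10 genes were picked by name and function and not by their values. Earlier results of these data were known when the genes, the lists and the tests were chosen, so the choice was not blind. Named genes are the 10, those of the 4 lists, start-site neighbours, the 3 most like Ung and at most 2 per marker list. The calculation was tested on simulated data. Alternatives changed the probe set, the replicate block, the use of the replicate 3 arrays, the scaling, the treatment of dim probe sets, the eBayes options, single arrays, the adjustment and the fold limit. Promoters came from RefSeq (GRCm38.p6). Plots were made in Python 3.11.15 (matplotlib 3.10.9).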

Additional observations from a re-analysis of the deposited data

How the results depend on the processing

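No log2 fold change of the 10 genes changed sign under any alternative run, and Ung, Mutyh and Mpg passed and Mbd4 did not pass in all of theirs. The replicate block, the replicate 3 covariate, the dim filter, the eBayes options and the adjustment leave the log2 fold change itself unchanged, so they could not turn its sign. The choice of probe set likewise changes nothing for genes with only 1. Deviations of same-numbered arrays from their group means correlated at 0.059, 0.56 and 0.15 for replicates 1, 3 and 5. A shared shift was thus clearest for replicate 3, and whether the numbers mark true pairs is not known. With the replicate number as a block, 5 of the genes were higher, with Nthl1 (0.54, adjusted p = 0.015) and Xrcc1 (0.45, adjusted p = 0.033) past the threshold, and over all genes 4272 were higher and 3606 lower, against 3869 and 3291. With the replicate 3 arrays against the rest as a covariate, 5 were higher (Nthl1 0.54, adjusted p = 0.012, and Xrcc1 0.45, adjusted p = 0.031), with 4408 of all genes higher and 3672 lower. On the 4 arrays of replicates 1 and 5, 1 gene was lower (all genes 3195 higher, 2832 lower), Nthl1 passed (0.66) and Parp2 did not (−0.22). With quantile normalisation 1 was lower (all genes 3879 and 3275), Nthl1 passed (0.61) and Parp2 did not (−0.17). With median centring 4 were lower (all genes 3323 and 3761), Ogg1 (−0.26, adjusted p = 0.031) and Neil3 (−0.34, adjusted p = 0.038) being added. With dim probe sets left out 1 was lower (all genes 3746 and 3253), Nthl1 passed (0.54, adjusted p = 0.049) and Parp2 did not (−0.26, adjusted p = 0.062), and the Neil3 probe set gave no value. With eBayes set to trend and robust 1 was lower (all genes 3919 and 3317), without Parp2 (−0.26, adjusted p = 0.15), which also missed when adjusted over all probe sets (−0.26, adjusted p = 0.051). Neil3 passed by its brightest probe set (−0.28) and by the mean of its probe sets (−0.27). Asking for a change over 2-fold left 1 of the 10 lower, 6 genes of the pathway lists higher and 2 lower, and 1585 of all genes higher and 1733 lower.

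With each array left out in turn, 2 to 5 of the 10 were higher and 1 was lower, the loss being Parp2 each time (all genes 3263 to 3639 higher and 2847 to 3089 lower). The log2 fold changes ran from 0.80 to 1.24 for Parp1, from −0.30 to −0.21 for Parp2, from 0.41 to 0.74 for Nthl1, from 0.34 to 0.62 for Xrcc1, from 0.10 to 0.42 for Mbd4 and from −0.33 to −0.16 for Neil3. For the other Parp1 and Mpg probe sets, left-out arrays were an alternative chosen after seeing the data, and all of them passed. The causes of these shifts were not tested.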
